A study of Mus musculus with 12 samples.

Results

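Cholesterol and fatty acid synthesis genes were followed in the brains of BALB/c mice, wild type or without the cytokine gene Il18. They are 40 genes listed by pathway: 18 enzymes of sterol synthesis, 4 regulators of the SREBP transcription factors, 12 genes of sterol transport, efflux and turnover, and 6 enzymes of fatty acid synthesis. A member was used if some group had its probe well above background on all 3 arrays, and where a gene had several such probes the brightest was taken. All 40 of 40 passed, and each was above background on 12 of 12 arrays, so that no member was lost to the filter. They are 40 of 26497 genes measured. Sc5d and Dhcr7, 2 further enzymes of sterol synthesis, are outside the list by its own rule.

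The study held 4 groups of 3 mice with 1 one-colour array each: interleukin-18 knockout mice at 12 weeks of age, wild-type mice at 12 weeks, interleukin-18 knockout mice at 6 weeks and wild-type mice at 6 weeks. Every animal was of the BALB/c strain and untreated, and the labels name neither the construct of the knockout allele nor the sex. Replicates are labelled as biological. In whole brain RNA, fewer cells of a type and less RNA per cell cannot be told apart.

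Brain cholesterol is made locally, because lipoproteins of the blood hardly pass the blood-brain barrier, and most of it lies in myelin. The mevalonate pathway builds isoprenoid units from acetyl-CoA, joins them to squalene, and turns squalene through lanosterol into cholesterol. SREBP transcription factors switch these enzymes on when sterol is scarce: Scap carries SREBP to the Golgi for cleavage, and Insig1 holds Scap back in the endoplasmic reticulum when sterol is plentiful. The liver X receptors Nr1h2 and Nr1h3 sense oxysterols and switch on export genes such as Abca1, Abcg1 and Apoe. Apoe particles from astrocytes carry cholesterol to neurons, which take it up by receptors such as Lrp1 and clear it by the hydroxylase Cyp46a1.

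Values are log2 of the signal minus the log2 75th percentile of the same array, so 0 is the array's own 75th percentile, and a positive change means higher in knockout than in wild type, or at 12 than at 6 weeks. A probe's value is compared with the same probe on other arrays and never with another gene. Changes are log2 differences ± SE from limma with 3 arrays per group, and "called" means a Benjamini-Hochberg adjusted p under 0.05 over all 26497 genes. The signal's 75th percentile ran from 890.1 to 1188 intensity units, between 65.9% and 76.2% of spots per array were well above background, and the number of arrays limits the precision. Il18 itself was -0.20, -0.23 and -0.32 in 12-week knockout brains, against 1.51, 1.63 and 1.93 in 12-week wild-type brains. At 6 weeks it was -0.28, -0.17 and -0.20 in knockout and 1.60, 1.75 and 1.52 in wild type, and the genotypes lay wholly apart at both ages (log2 changes -1.94 ± 0.10 and -1.84 ± 0.10, adjusted p = 1.19e-05 and 2.28e-05). Whether this probe lies in the deleted part of the gene is not given in the sources used here.

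The arrays lay on 2 slides. Slide 2 held every 12-week knockout array and 6-week knockout replicate 3, and slide 1 held the other 8 arrays. The first principal component of all genes, with 38.8% of the variance, set the slides apart. At 12 weeks genotype and slide therefore coincide, and no value within a slide exists. A fit with slide as a block takes the slide effect from the 6-week knockout group alone, that is from replicate 3 against replicates 1 and 2, and its values stand beside the results below.

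**Figure D1:**
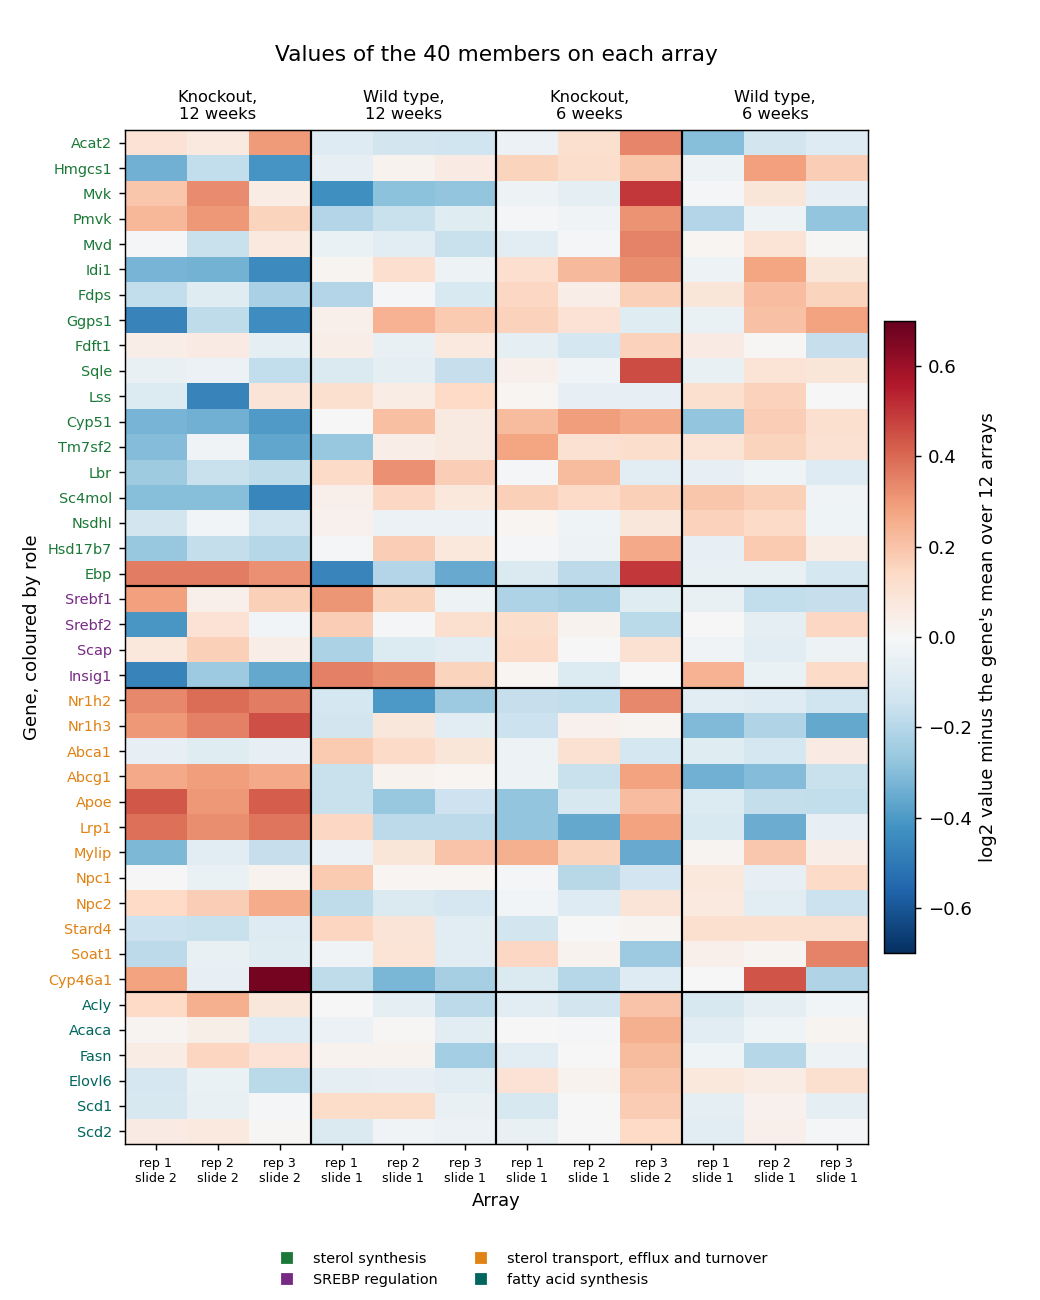
Values of the 40 members (rows, grouped by role) on the 12 arrays (columns, with replicate and slide), as log2 value minus the gene's mean over the 12 arrays. Hmgcs1, Idi1, Cyp51 and Sc4mol are low on the 3 knockout arrays of 12 weeks and not on 6-week knockout replicate 3, which shares their slide, whereas Ebp, Nr1h2, Apoe and Lrp1 are high on all 4 arrays of slide 2.

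The first comparison asked how the pathway differs in 12-week knockout brains from 12-week wild-type brains. Of the 40 members 10 rose and 8 fell. The enzymes that fell were Hmgcs1, Idi1, Ggps1, Cyp51, Lbr, Sc4mol and Hsd17b7, together with the sterol sensor Insig1, and the enzymes that rose were Mvk, Pmvk and Ebp. The transport and turnover genes Apoe, Nr1h2, Nr1h3, Abcg1, Npc2 and Cyp46a1, rose, as did Scap. Sizes were modest, between 1.56-fold lower (Insig1) and 1.61-fold higher (Ebp). The 18 called members are 45% of the list, beside 33% of all genes called in this comparison (18.5% higher and 14.5% lower), a background that is itself high. The arrays of both genotypes lay wholly apart for 26 of 40 members, beside 52.4% of all genes.

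With slide as a fixed or as a random block 0 members were called at 12 weeks (limma, adjusted p 0.336 to 0.985 with the fixed block for the 18 that had been called), and 0.113% of all genes were called with the fixed and 0.192% with the random block. The standard error of a called member was larger under that block by a median factor of 1.54. Sizes are therefore given with and without it.

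Among the sterol synthesis enzymes 3 rose, 7 fell and 8 were not called, with a median log2 change of -0.13 beside 0.017 for all genes. Hmgcs1, the synthase that makes HMG-CoA at the head of the mevalonate pathway, was 4.83, 4.99 and 4.75 in 12-week knockout brains and 5.11, 5.19 and 5.22 in 12-week wild-type brains. In 6-week brains it was 5.32, 5.29 and 5.36 in knockout and 5.13, 5.45 and 5.34 in wild type. The 12-week knockout arrays were below the other 9, and the 6-week knockout array of slide 2 was level with its group on slide 1. The log2 change at 12 weeks was -0.31 ± 0.09 (limma, adjusted p = 0.0251), and -0.37 with the slide block. The call was lost without 12-week wild-type replicate 2 or 3 or 12-week knockout replicate 1 or 3 (limma, adjusted p 0.0685 to 0.0819). The probe is placed on the unplaced sequence 13_random of genome build mm9, from 114793 to 114852.

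Idi1 isomerises the isoprenoid unit so that chains can be joined. Its values were 2.49, 2.48 and 2.37 in 12-week knockout brains, against 2.83, 2.93 and 2.78 in 12-week wild-type brains. Replicates 1, 2 and 3 of the 6-week knockouts were at 2.93, 3.04 and 3.14, and 6-week wild types at 2.78, 3.09 and 2.90. No array outside the 12-week knockouts was below 2.78, and the slide 2 array of 6 weeks had the highest value of all 12. The change at 12 weeks was -0.40 ± 0.09 (adjusted p = 0.0113; -0.55 with the block), at a probe on mm9 chromosome 13 from 8891524 to 8891583.

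Cyp51, the demethylase that acts on lanosterol, was -0.92, -0.93 and -0.99 in 12-week knockout brains and -0.59, -0.38 and -0.53 in 12-week wild-type brains. At 6 weeks it was -0.37, -0.30 and -0.33 in knockout and -0.87, -0.42 and -0.48 in wild type. The knockout arrays were thus wholly below wild type at 12 weeks and wholly above it at 6 weeks. The change at 12 weeks was -0.45 ± 0.11 (adjusted p = 0.0137; -0.46 with the block). The probe lies on mm9 chromosome 5 from 4081471 to 4081530.

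Sc4mol, named Msmo1 in RefSeq, is the oxidase that takes methyl groups off the sterol ring. It was 4.08, 4.08 and 3.92 in 12-week knockout brains, against 4.41, 4.52 and 4.45 in 12-week wild-type brains. The 6-week arrays read 4.54, 4.51 and 4.54 in knockout and 4.57, 4.54 and 4.35 in wild type. All 9 other arrays lay at 4.35 or above, the 6-week knockout of slide 2 included. The change was -0.43 ± 0.08 (adjusted p = 0.00597), and -0.45 with the block. Its probe is on mm9 chromosome 8 from 67196982 to 67197041.

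Ggps1, which makes geranylgeranyl diphosphate for protein prenylation, was 2.18, 2.47 and 2.21 in 12-week knockout brains and 2.68, 2.89 and 2.83 in 12-week wild-type brains. Its log2 change was -0.51 ± 0.12 (adjusted p = 0.0108; -0.29 with the block). This fall was not shared by the gene's other probes, which gave 0.09 and -0.01 in a fit over all probes, and with the mean of its probes the change was -0.14 (adjusted p = 0.131). Lbr, a sterol reductase that is also a protein of the inner nuclear membrane, was -0.63, -0.54 and -0.56 in 12-week knockout and -0.25, -0.06 and -0.21 in 12-week wild-type brains (-0.40 ± 0.09, adjusted p = 0.0092; -0.21 with the block). A second and dimmer probe of Lbr, with a mean value of -4.27 against -0.38 for the probe used, gave -1.11. Hsd17b7, a ketoreductase of the same demethylation step as Sc4mol, changed by -0.30 ± 0.10 (limma, adjusted p = 0.0389), by -0.58 with the block, and by -0.34 at its second probe. Its call was lost whichever array of the comparison was left out (limma, adjusted p 0.0501 to 0.123).

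Ebp, Mvk and Pmvk were the enzymes that were higher in 12-week knockout brains. Ebp, the isomerase that shifts the double bond of the sterol ring, was 3.68, 3.68 and 3.64 there, against 2.86, 3.12 and 2.97 in 12-week wild-type brains (0.68 ± 0.15, adjusted p = 0.00997). In 6-week knockout brains it was 3.82 on slide 2 against 3.22 and 3.14 on slide 1, and 6-week wild types had 3.27, 3.27 and 3.20. The slide 2 array of 6 weeks thus lay with the 12-week knockouts, and the change with slide as a block was 0.05. Mvk, mevalonate kinase, was 2.97, 3.11 and 2.83 in 12-week knockout and 2.35, 2.49 and 2.50 in 12-week wild-type brains (0.52 ± 0.14, adjusted p = 0.0186). The block turned it to -0.02. Pmvk, the next kinase, changed by 0.38 ± 0.10 (adjusted p = 0.0193), by 0.05 with the block, and by 0.15 at its second probe, which was not called.

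Of the 8 enzymes of sterol synthesis that were not called at 12 weeks, Lss had -0.26 ± 0.12 (adjusted p = 0.113) and Acat2, the thiolase that joins acetyl-CoA units, 0.28 ± 0.10 (adjusted p = 0.0616). Mvd, Fdps, Fdft1, Sqle, Tm7sf2 and Nsdhl had changes from -0.18 to 0.06. A second probe of Nsdhl gave -0.63 and one of Fdft1 0.58, so these genes' probes differ from each other. These second probes were dim, with mean values of -3.4 and -4.46 against -0.05 and 2.37 for the probes used. With slide as a block 16 of the 18 enzymes had a change below 0 and the median was -0.24, beside -0.04 for all genes.

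Of 4 members that regulate SREBP, 1 rose and 1 fell at 12 weeks. Insig1 was -1.29, -1.08 and -1.18 in 12-week knockout brains, against -0.47, -0.50 and -0.67 in 12-week wild-type brains. In 6-week brains it was -0.81, -0.92 and -0.82 in knockout and -0.58, -0.87 and -0.69 in wild type. All 3 arrays of the 12-week knockout were below the other 9. This was the lowest adjusted p among the members (-0.64 ± 0.09, adjusted p = 0.00445; -0.68 with the block, adjusted p = 0.387), at a probe on mm9 chromosome 5 from 28404246 to 28404305. Scap, on mm9 chromosome 9 but 59.9 Mb from the Il18 probe, was 3.96, 4.05 and 3.93 in 12-week knockout and 3.66, 3.79 and 3.81 in 12-week wild-type brains (0.23 ± 0.07, adjusted p = 0.0271; 0.18 with the block, and 0.04 with quantile normalization, where it was not called). The transcription factors themselves were not called, Srebf1 with 0.02 ± 0.10 and Srebf2 with -0.20 ± 0.13.

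**Figure D2:**
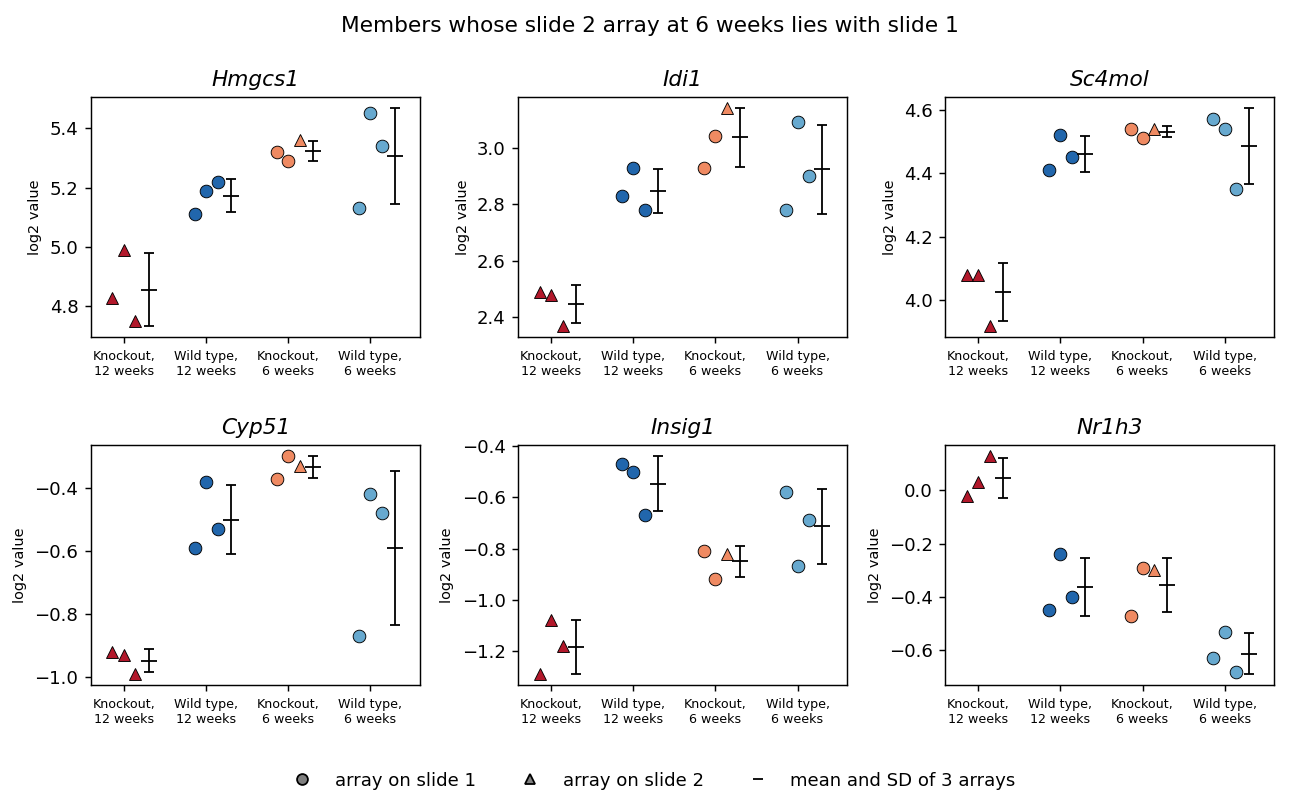
Log2 values of 6 members by group, 1 point per array (circles slide 1, triangles slide 2) with the mean and SD of 3 arrays beside them. The 6-week knockout triangle lies near the 6-week knockout circles in each panel, from 0.01 above them (Cyp51) to 0.15 above them (Idi1), while the 12-week knockout triangles are lower for Hmgcs1, Idi1, Sc4mol, Cyp51 and Insig1 and higher for Nr1h3.

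The sequences below are the promoters of Hmgcs1, Idi1, Sc4mol, Cyp51, Hsd17b7 and Insig1, shown because their changes at 12 weeks were called and at least as large with the slide block as without it, and of Nr1h3, a receptor gene that moved the other way. SREBP binds a sterol response element, searched here as TCACNCCAC, and acts together with NF-Y, which binds CCAAT, and both strands were searched. Each runs 5′ to 3′ from 250 bases before to 50 after the RefSeq start of transcription in build GRCm38.p6, and capitals mark matches to either motif (ATTGG is CCAAT on the other strand).
Hmgcs1: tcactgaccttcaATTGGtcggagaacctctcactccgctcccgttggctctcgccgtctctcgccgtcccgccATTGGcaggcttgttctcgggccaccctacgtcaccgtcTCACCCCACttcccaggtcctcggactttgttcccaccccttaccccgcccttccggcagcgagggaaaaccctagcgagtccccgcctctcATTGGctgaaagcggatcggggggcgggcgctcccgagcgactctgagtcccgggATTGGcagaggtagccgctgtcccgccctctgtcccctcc
Idi1: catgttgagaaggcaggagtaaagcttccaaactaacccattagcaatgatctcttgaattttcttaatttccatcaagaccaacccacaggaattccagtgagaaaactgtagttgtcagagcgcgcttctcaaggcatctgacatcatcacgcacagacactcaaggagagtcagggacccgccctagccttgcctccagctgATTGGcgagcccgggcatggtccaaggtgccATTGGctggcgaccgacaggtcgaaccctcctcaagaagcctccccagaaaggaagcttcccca
Sc4mol: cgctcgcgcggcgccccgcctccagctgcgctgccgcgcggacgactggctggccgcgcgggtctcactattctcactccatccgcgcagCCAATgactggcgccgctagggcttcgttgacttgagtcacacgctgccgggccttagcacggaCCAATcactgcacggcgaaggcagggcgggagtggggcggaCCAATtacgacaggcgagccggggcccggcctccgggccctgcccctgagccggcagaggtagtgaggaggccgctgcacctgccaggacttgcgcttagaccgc
Cyp51: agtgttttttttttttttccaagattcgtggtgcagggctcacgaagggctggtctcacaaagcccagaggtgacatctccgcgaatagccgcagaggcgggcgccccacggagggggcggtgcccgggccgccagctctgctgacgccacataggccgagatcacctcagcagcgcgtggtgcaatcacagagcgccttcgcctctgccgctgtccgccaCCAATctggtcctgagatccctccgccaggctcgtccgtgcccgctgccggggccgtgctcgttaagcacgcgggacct
Hsd17b7: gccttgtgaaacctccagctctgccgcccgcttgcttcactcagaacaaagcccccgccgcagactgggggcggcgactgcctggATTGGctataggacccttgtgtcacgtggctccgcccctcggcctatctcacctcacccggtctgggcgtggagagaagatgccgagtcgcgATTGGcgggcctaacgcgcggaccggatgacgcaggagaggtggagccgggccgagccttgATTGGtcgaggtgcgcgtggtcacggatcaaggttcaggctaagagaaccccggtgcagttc
Insig1: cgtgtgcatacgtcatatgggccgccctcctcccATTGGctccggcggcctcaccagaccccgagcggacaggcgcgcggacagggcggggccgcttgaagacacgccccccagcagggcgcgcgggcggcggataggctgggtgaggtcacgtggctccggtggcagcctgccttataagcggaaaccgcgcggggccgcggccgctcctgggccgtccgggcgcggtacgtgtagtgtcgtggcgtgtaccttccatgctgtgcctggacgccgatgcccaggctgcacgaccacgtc
Nr1h3: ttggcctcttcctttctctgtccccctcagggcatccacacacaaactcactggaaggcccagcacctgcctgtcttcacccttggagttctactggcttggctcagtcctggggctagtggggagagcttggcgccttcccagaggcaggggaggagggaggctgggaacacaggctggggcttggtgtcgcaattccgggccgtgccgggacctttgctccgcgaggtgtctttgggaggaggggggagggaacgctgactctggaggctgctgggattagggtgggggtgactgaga

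They lie on GRCm38.p6 at chr13:119690101-119690400 on the plus strand (Hmgcs1), chr13:8885356-8885655 on the plus strand (Idi1), chr8:64733529-64733828 on the minus strand (Sc4mol), chr5:4104648-4104947 on the minus strand (Cyp51), chr1:169969156-169969455 on the minus strand (Hsd17b7), chr5:28071162-28071461 on the plus strand (Insig1) and chr2:91195067-91195366 on the minus strand (Nr1h3, the first of 2 entries). Hmgcs1 holds the single match to the sterol response element, at position -137 from its start, and 4 matches to CCAAT. The NF-Y letters were found 2 times in Idi1, 3 times in Sc4mol, 1 time in Cyp51, 3 times in Hsd17b7 and 1 time in Insig1, and neither motif was found in the Nr1h3 window. Promoters of 32 of 40 members were in the table. Members are counted at their first entry, while the shares of all promoters cover every entry of every gene. CCAAT was present in 23 of these 32, and in 24 of 39 when every entry of the members is counted. The share was 37.4% of all 32851 mouse promoters of the same length. Among sterol synthesis promoters CCAAT was present in 14 of 15. Those 14 include Ebp and Mvk, which rose at 12 weeks, with 2 and 5 matches. The sterol response element letters were in 1 of 32 members and 1.24% of all promoters, and the E-box CACGTG, left in lower case above, in 4 of 32 and 7.15%. A match is a string of letters in these windows and not a measured binding site.

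Among the 12 genes of sterol transport, efflux and turnover 6 rose at 12 weeks and 0 fell, with a median log2 change of 0.32 beside 0.017 for all genes. Apoe, the main lipoprotein of brain particles, was 7.92, 7.79 and 7.91 in 12-week knockout brains, against 7.33, 7.22 and 7.34 in 12-week wild-type brains. In 6-week knockout brains it was 7.70 on slide 2 against 7.21 and 7.37 on slide 1, and 6-week wild types had 7.39, 7.32 and 7.31. All 4 arrays of slide 2 lay above all 8 of slide 1. The change at 12 weeks was 0.58 ± 0.11 (adjusted p = 0.007), a 1.49-fold rise, and 0.17 with slide as a block. Its probe is on mm9 chromosome 7 from 20281732 to 20281791.

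Both liver X receptors rose, and they differed in where the slide 2 array of 6 weeks lay. Nr1h2 was 3.91, 3.96 and 3.93 in 12-week knockout and 3.45, 3.17 and 3.32 in 12-week wild-type brains (0.62 ± 0.13, adjusted p = 0.00802). Its 6-week knockout array of slide 2, at 3.91, was level with the 12-week knockouts, while those of slide 1 were at 3.41 and 3.40, and the change with the block was 0.12. Nr1h3 was -0.02, 0.03 and 0.13 in 12-week knockout brains and -0.45, -0.24 and -0.40 in 12-week wild-type brains (0.41 ± 0.08, adjusted p = 0.00797; 0.33 with the block). At 6 weeks it was -0.47, -0.29 and -0.30 in knockout, the last of these on slide 2, and -0.63, -0.53 and -0.68 in wild type. A second Nr1h3 probe gave 0.52 at 12 weeks.

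Abcg1, a cholesterol exporter, was 2.99, 3.02 and 2.99 in 12-week knockout and 2.57, 2.75 and 2.74 in 12-week wild-type brains (0.32 ± 0.11, adjusted p = 0.0448). Its 6-week knockout array of slide 2 was at 3.01, against 2.69 and 2.57 on slide 1, and the block turned the change to -0.06. Npc2, which moves cholesterol out of lysosomes, changed by 0.32 ± 0.08 (adjusted p = 0.0126; 0.18 with the block). Cyp46a1, the hydroxylase by which neurons clear cholesterol, was 0.15, -0.19 and 0.54 in 12-week knockout brains, a wide spread, and -0.31, -0.45 and -0.36 in 12-week wild-type brains (0.54 ± 0.19, adjusted p = 0.0484; 0.48 with the block). The call of Cyp46a1 was lost with 5 of the 6 arrays of the comparison left out in turn. That of Abcg1 was lost whichever array was left out (limma, adjusted p 0.0718 to 0.135).

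Lrp1, an uptake receptor for Apoe particles, had 3.30, 3.24 and 3.29 in 12-week knockout and 3.06, 2.73 and 2.73 in 12-week wild-type brains and was not called (0.43 ± 0.16, adjusted p = 0.061; -0.16 with the block). The exporter Abca1 had -0.20 ± 0.07 (adjusted p = 0.0619) with its arrays wholly apart, and Mylip, a ubiquitin ligase that is a target of the liver X receptors, -0.26 ± 0.14 (adjusted p = 0.18). Npc1, Stard4 and Soat1 had -0.08, -0.19 and -0.11 and were not called. Second probes differed from these in the fit over all probes, with -0.54 for Stard4 (adjusted p = 0.00956) and 0.52 for Mylip (adjusted p = 0.0541). They were dim, with mean values of -3.9 and -4.65 against 0.88 and 0.48 for the probes used.

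**Figure D3:**
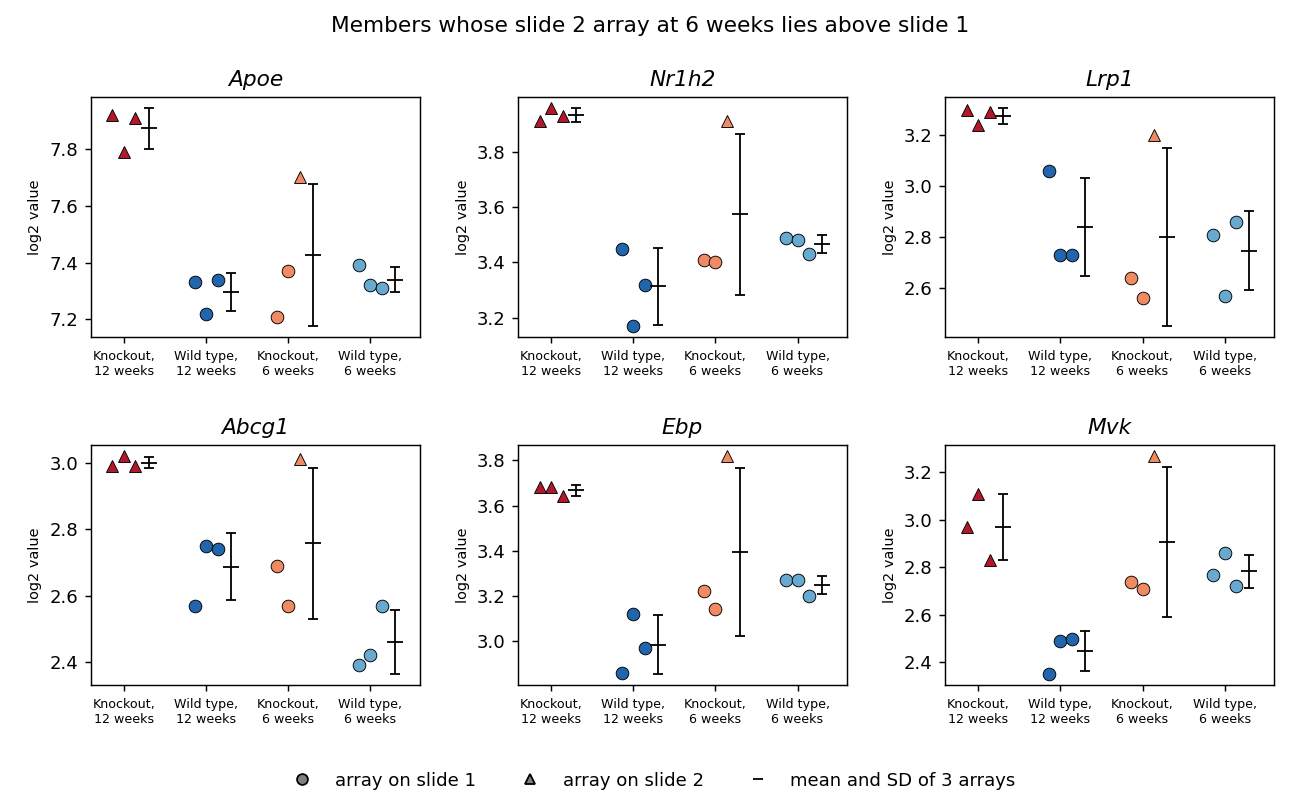
Log2 values of 6 members by group, 1 point per array (circles slide 1, triangles slide 2) with the mean and SD of 3 arrays beside them. In each panel the 6-week knockout triangle lies above the 6-week knockout circles, by 0.38 (Abcg1) to 0.64 (Ebp), and near the 12-week knockout triangles or above them.

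None of the 6 fatty acid synthesis enzymes was called at 12 weeks, and their changes ran from -0.12 to 0.24. Acly, which supplies cytosolic acetyl-CoA, had 0.24 ± 0.09 (adjusted p = 0.0722). Fasn, the fatty acid synthase, was -0.50, -0.40 and -0.45 in 12-week knockout and -0.53, -0.53 and -0.79 in 12-week wild-type brains (0.16 ± 0.10, adjusted p = 0.235). Acaca, which makes malonyl-CoA, and the desaturases and elongase Scd1, Scd2 and Elovl6 had 0.02, -0.12, 0.10 and -0.05. Another and dimmer Acaca probe (mean value -2.9 against 3.16) was called lower in the fit over all probes (-0.43, limma adjusted p = 0.0461). The remaining probes of Acaca had -0.05 and -0.25 and were not called. The 95% intervals of the 6 reached from -0.32 to 0.45. Their direction depended on the scaling: 2 were called higher when each array was scaled to its median, and 3 were called lower with quantile normalization. It depended on the slide block too. With slide as a fixed block 6 of 6 were below 0, with a median of -0.14 beside -0.04 for all genes, and 0 were called.

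The split of calls over all members moved with the scaling in the same way, 10 higher and 8 lower as reported, 14 and 6 with median scaling, and 8 and 13 with quantile normalization. The share of all genes called was not counted for the other scalings, so these totals have no background beside them. With median scaling the genes as a whole shifted, to a median of 0.137 at 12 weeks and 0.132 at 6 weeks. All 18 called members kept their direction under both. Of the 8 that fell, 6 stayed called under both scalings, and Hmgcs1 and Hsd17b7 were not called with median scaling (-0.20 and -0.18, adjusted p = 0.199 and 0.215). With each array of the comparison left out in turn 10 of the 18 calls held every time, 5 lower (Insig1, Sc4mol, Lbr, Ggps1 and Idi1) and 5 higher (Apoe, Nr1h2, Nr1h3, Ebp and Npc2). The other 8, of Hmgcs1, Cyp51, Hsd17b7, Mvk, Pmvk, Scap, Abcg1 and Cyp46a1, were lost with some array left out. Leaving out 12-week wild-type replicate 2 or 12-week knockout replicate 1 left 11 calls each, in fits that called 20.4% and 19.6% of all genes.

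**Figure D4:**
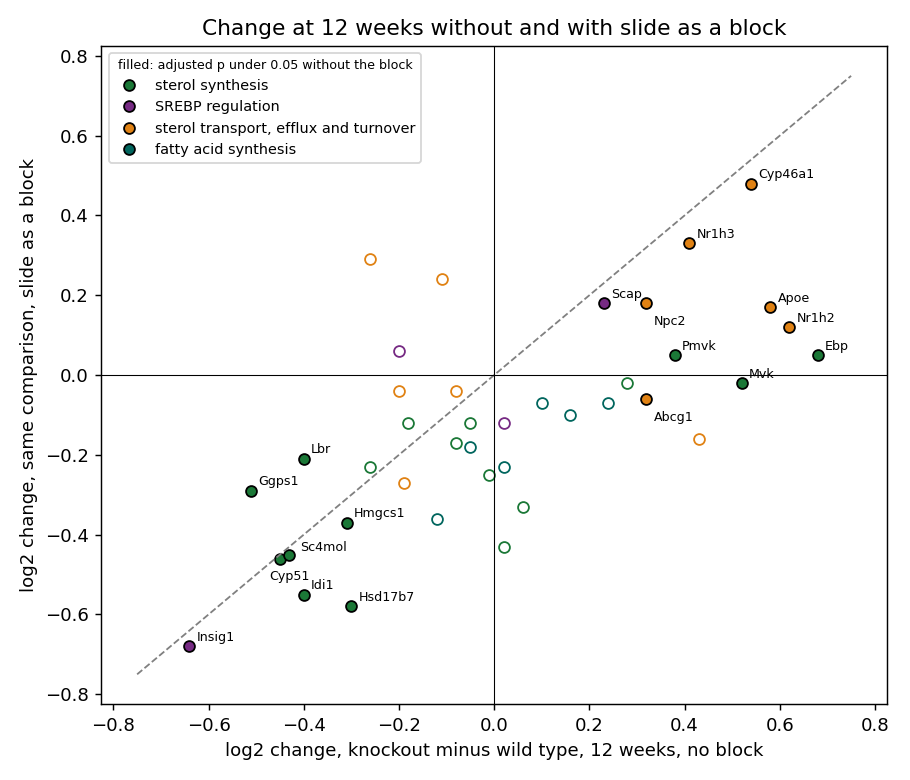
Log2 change of each member at 12 weeks, knockout minus wild type, without a block (horizontal) and with slide as a fixed block (vertical); filled points were called without the block, and the dashed line marks equal changes. Insig1, Sc4mol, Cyp51, Hmgcs1, Idi1 and Hsd17b7 lie on or below the line, and Ebp, Mvk, Pmvk, Abcg1, Apoe and Nr1h2 lie near 0 on the vertical axis, from -0.06 to 0.17.

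The placement of 6-week knockout replicate 3 can be counted for every gene, as a description. Its value was nearer to the 12-week knockout mean than to the mean of the other 6-week knockouts for 1 of the 8 members that fell (Lbr), beside 65.8% of all genes called lower. For the members that rose it was 8 of 10, beside 78.4% of all genes called higher, with Nr1h3 and Cyp46a1 as the exceptions. The change with the block was at least 0.5 times the change without it for 8 of 8 members that fell, beside 46.9% of genes called lower, and for 4 of 10 that rose, beside 34.2% of genes called higher. One array carries all of this, and at 12 weeks slide and genotype cannot be told apart.

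At 6 weeks the comparison of knockout with wild-type brains called 0 of 40 members (limma), beside 0.925% of all genes, and 5 had an unadjusted p under 0.05, beside 18.5% of all genes. Changes ran from -0.21 to 0.31 with a median of 0.05, beside 0.036 for all genes, and every 95% interval lay within -0.63 and 0.54. The lowest p belonged to Nr1h3, with -0.47, -0.29 and -0.30 in 6-week knockout and -0.63, -0.53 and -0.68 in 6-week wild-type brains (0.26 ± 0.08, adjusted p = 0.149). Acat2 was -0.46, -0.31 and -0.08 in knockout and -0.72, -0.55 and -0.51 in wild type (0.31 ± 0.10, adjusted p = 0.166). For both genes the arrays of the genotypes did not overlap, as for 7 of 40 members in all and 23.7% of all genes. Genotype and slide column cannot be told apart within the 6-week arrays. With slide column as a block 0 members were called at 6 weeks (limma), beside 0.404% of all genes. The median SE of the members was 0.17 with that block and 0.1 without it.

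Abcg1 at 6 weeks was 2.69, 2.57 and 3.01 in knockout and 2.39, 2.42 and 2.57 in wild type (0.30 ± 0.11, adjusted p = 0.188), and 0.17 on slide 1 alone. Pmvk, at 4.08, 4.07 and 4.41 in knockout and 3.89, 4.06 and 3.82 in wild type, had 0.26 ± 0.10 (adjusted p = 0.215), and 0.15 on slide 1 alone. The slide 2 array was the highest knockout array in both. The members that fell at 12 weeks had changes near 0 at 6 weeks for Hmgcs1 (0.02 ± 0.09), Sc4mol (0.05 ± 0.08) and Idi1 (0.11 ± 0.09), while Insig1 had -0.14 ± 0.09 and Cyp51 0.26 ± 0.11.

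Age was compared within each genotype. In wild-type brains, all on slide 1, 0 of 40 members were called between 12 and 6 weeks (limma), beside 0.638% of all genes, and 7 had an unadjusted p under 0.05, beside 14.7%. Fdps, which makes farnesyl diphosphate, was 3.61, 3.80 and 3.71 at 12 weeks and 3.90, 4.03 and 3.97 at 6 weeks (-0.26 ± 0.07, adjusted p = 0.141). Lbr was -0.25, -0.06 and -0.21 at 12 weeks and -0.44, -0.41 and -0.47 at 6 weeks (0.27 ± 0.09, adjusted p = 0.188). For both genes the arrays of the ages were wholly apart, as for 12 of 40 members in all and 24.8% of all genes. Nr1h3 and Srebf1, the SREBP gene of fatty acid synthesis, had 0.25 ± 0.08 (adjusted p = 0.193) and 0.27 ± 0.10 (adjusted p = 0.236).

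In knockout brains 5 members were called between 12 and 6 weeks, 1 higher and 4 lower, which is 12.5% of the list beside 2.01% of all genes (1.09% higher and 0.913% lower). The 4 that fell with age were enzymes of sterol synthesis, Cyp51 (-0.62 ± 0.11, adjusted p = 0.035), Idi1 (-0.59 ± 0.09, adjusted p = 0.0317), Sc4mol (-0.51 ± 0.08, adjusted p = 0.03) and Hmgcs1 (-0.47 ± 0.09, adjusted p = 0.0402). The member that rose was Nr1h3 (0.40 ± 0.08, adjusted p = 0.0455). Their array values are those given above. The 12-week arrays lay wholly beyond the 6-week arrays for all 5, as for 19 of 40 members in all and 26.3% of all genes. The 5 were called on these same arrays, so this only describes them. All 5 were also called at 12 weeks between genotypes, and both comparisons use the same 12-week knockout arrays.

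Against the 6-week knockout array of their own slide the 12-week knockouts differed by -0.62 for Cyp51, -0.69 for Idi1, -0.52 for Sc4mol, -0.50 for Hmgcs1 and 0.35 for Nr1h3. With that single array the spread is poorly known, and 0 members and 0% of all genes were called on slide 2 alone. With slide as a block over all arrays 0 members were called too, beside 0.0717% of all genes with a fixed and 0.0566% with a random block (limma). For 18 of 18 sterol synthesis enzymes the mean of the 12-week knockouts was below that array. Their median change was -0.31, beside -0.048 for all genes. The same held for 6 of 6 fatty acid synthesis enzymes (median -0.18) and 11 of 12 myelin markers (median -0.4). Among the transport and turnover genes it held for 2 of 12 (median 0.11). Over all 3 arrays at 6 weeks 13 of 18 sterol synthesis enzymes were below 0 with a median of -0.24, beside -0.005. The count of 5 changed with the arrays used. It was 20 without 6-week knockout replicate 3, where 28% of all genes were called, 4 without 12-week knockout replicate 2, where 1.78% were, and 0 without any of 6-week knockout replicates 1 and 2 and 12-week knockout replicates 1 and 3. Without 6-week knockout replicate 3, age and slide coincide in knockout, so those 20 calls cannot be told apart from slide. Insig1, at -0.33 ± 0.09, was not called (adjusted p = 0.0756).

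**Figure D5:**
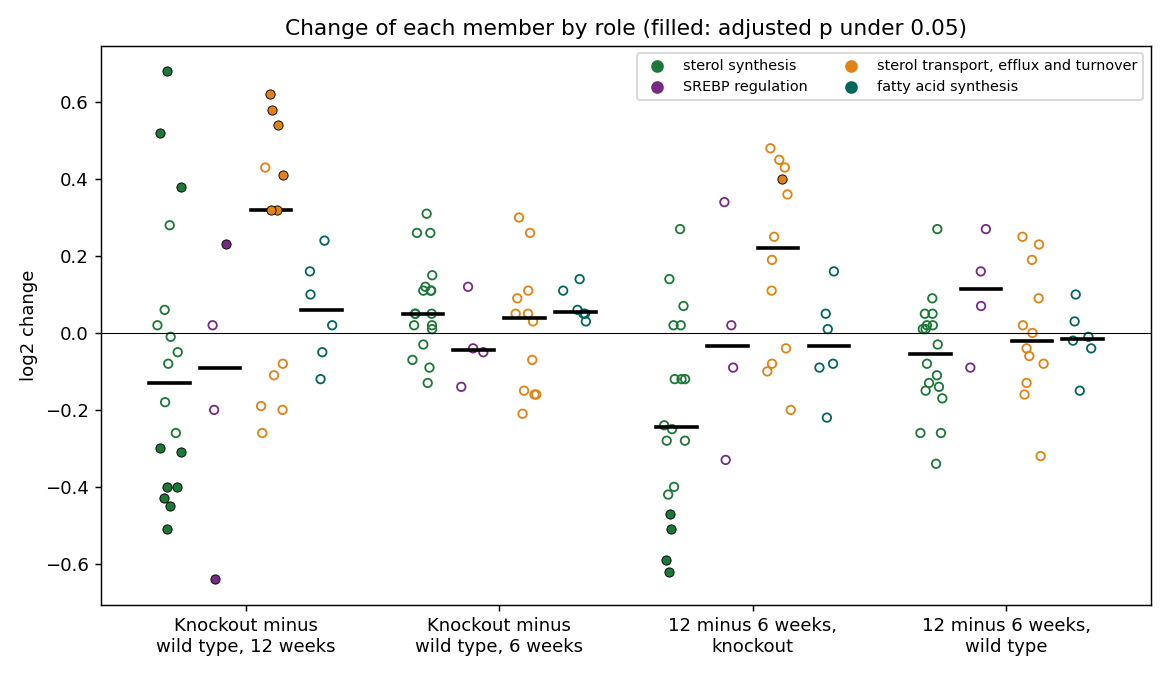
Log2 change of each of the 40 members in 4 comparisons, coloured by role, with filled points called and bars at the median of a role. In the comparison of genotypes at 12 weeks the sterol synthesis median is -0.13 and the transport median 0.32, and with age in knockout they are -0.24 and 0.22.

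Whether the genotype change differed between 12 and 6 weeks was tested as an interaction. It called 0 of 40 members (limma), beside 0.189% of all genes, and 13 had an unadjusted p under 0.05, beside 19.6%. The lowest adjusted p was that of Cyp51 (-0.71 ± 0.15, adjusted p = 0.0982), followed by Sc4mol (-0.48 ± 0.11, adjusted p = 0.103), Lbr (-0.51 ± 0.12, adjusted p = 0.114) and Idi1 (-0.51 ± 0.13, adjusted p = 0.123). Without 6-week knockout replicate 3, 10 members were called, these 4 among them with changes of -0.70, -0.47, -0.57 and -0.46, and 17.8% of all genes were called in that fit. The effects at 12 and 6 weeks are therefore not shown to differ for any member over all 12 arrays.

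Of 43 other measured genes of lipid pathways, 7 rose and 4 fell at 12 weeks, and 0 were called at 6 weeks (limma). The 11 called at 12 weeks are 25.6% of these genes, below the 33% of all genes, and 0 were called with slide as a fixed or random block. Mbtps2, a protease that releases SREBP, changed by -0.61 ± 0.13 (adjusted p = 0.00913), and by -0.12 with the block. Acsbg1, an acyl-CoA synthetase, changed by 0.46 ± 0.08 (adjusted p = 0.00638; 0.19 with the block), and its probe is 4.06 Mb from that of Il18. With age Elovl1, a fatty acid elongase, fell in wild type (-0.54 ± 0.10, adjusted p = 0.0411), and Acacb, an acetyl-CoA carboxylase, rose in knockout (0.37 ± 0.08, adjusted p = 0.0428). The Acacb change was 0.25 with slide as a fixed block and was no longer called (adjusted p = 0.506), while Elovl1, compared within slide 1, stayed called (adjusted p = 0.0044). The call of Elovl1 was lost in 2 other settings. With slide column as a block and with median scaling, 0 of the 43 genes were called with age in wild type. All 6-week wild-type arrays lay in slide column 2, and 12-week wild-type replicates 2 and 3 in column 1.

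Markers of the cell types in whole brain were read beside these results. The summed level of a list is the sum of its genes' signals as multiples of the array's 75th percentile. In 12-week knockout against 12-week wild-type brains 33% of all genes were called, 18.5% higher and 14.5% lower, and the marker counts stand beside these shares. Of the myelin and oligodendrocyte markers 4 of 12 rose and 3 fell, and their summed level was 349 to 352 against 338 to 347. Of the astrocyte markers 4 of 9 rose and 1 fell (487 to 535 against 407 to 414). Their median log2 change was 0.04 and 3 of 9 were below 0; most of the difference in the sum is that of Aldoc, whose mean log2 value was 8.49 in knockout and 8.08 in wild type. Of the microglia markers 4 of 8 rose (95.8 to 102 against 77.1 to 87.2). Neuron markers rose in 3 of 9 genes (349 to 381 against 302 to 321), endothelial and pericyte markers in 2 of 8 (19.8 to 22.2 against 16.3 to 18.3), and 0 of 8 choroid plexus markers were called (87.5 to 109 against 81.6 to 92.3). Blood markers rose in 5 of 6 genes (87.9 to 142 against 58.8 to 81.9). With slide as a fixed or random block 0 markers of any of these lists were called at 12 weeks. With the fixed block 10 of 12 myelin markers were below 0, with a median of -0.18, and 6 of 6 blood markers above 0, with a median of 1.14.

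At 6 weeks the myelin sum was 382 to 473 in knockout against 449 to 474 in wild-type brains, so it was lower at 12 weeks than at 6 weeks in both genotypes. With age in knockout 4 of 12 myelin markers fell, beside 0.913% of all genes called lower. Ugt8a, which makes a myelin lipid, was among them (-0.64, limma adjusted p = 0.0133). Of these 4, 0 were called with slide as a fixed block and on slide 2 alone, and 1 myelin marker was called with slide as a random block (Ugt8a had -0.61 with the fixed block, adjusted p = 0.168). With age in wild type Ugt8a fell as much (-0.64, adjusted p = 0.00958), while Idi1, Cyp51, Sc4mol and Hmgcs1 had -0.08, 0.09, -0.03 and -0.14 and were not called. Every marker gene listed here was above background on all arrays, neuron, glial and myelin markers of whole brain among them. The part of cell make-up in the changes of the members was not tested.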

How the data were processed

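Total RNA of whole brain was labelled with Cy3 and hybridised to 12 one-colour Agilent arrays, 1 per mouse. The deposited scanner files hold signal intensity per spot, which the authors extracted with Feature Extraction, given as version 10.7.3.1 in the submitters' processing notes, and the file headers give the processed signal as background-subtracted. The authors' deposited value table holds the same intensity within 0.498% and served as an alternative. Of 62976 spots per array 59305 were not controls, outlier spots (107 to 220 per array) were left out, and none was saturated. Each log2 signal was set against the log2 of its array's 75th percentile, and spots of a probe were averaged. This keeps one factor per array, so a shift of many genes in one direction moves every other gene.

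A probe was kept where some group had it well above background on all 3 arrays (37200 probes), and the brightest kept probe stood for a gene name (26497 genes). Group means were fitted over all 12 arrays with limma 3.58.1 in R 4.3.3 (lmFit and eBayes, 8 residual degrees of freedom), tests were two-sided, and p-values were adjusted over all genes in each of 5 comparisons. Genes shown with full values were up to 6 of the largest called changes in each direction, and those of lowest p where none was called. The rest are given by role. The array values of Scap, Abcg1, Lrp1 and Fasn at 12 weeks were added after they had been seen. Some other lipid pathway genes that the same rule would name are not reported here. The fit was tested on simulated data for the 12-week comparison: of 200 changed genes among 26497 it called 75% at a log2 change of 1 and 33% at 0.5, with 8 false calls. The simulated arrays held independent noise and no slide effect. These counts therefore give no rate of false calls for the real 12-week comparison, where slide and genotype coincide. The alternatives were slide and slide column as blocks, one slide only, replicate number as a block, other scalings, backgrounds, filters and probe rules, and each array left out. Probe positions are those of the files (mm9). Promoters are from RefSeq (GRCm38.p6), where 32 of 40 members matched by symbol. Fdps, Fdft1, Sqle, Abcg1, Npc1, Stard4, Scd1 and Scd2 were not matched. The members and the gene lists were chosen with earlier results of these data known.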

Additional observations from a re-analysis of the deposited data

Results flagged for a closer look

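Cyp51, the lanosterol demethylase, stood out because its genotype difference ran opposite ways at the 2 ages, with every knockout array below every wild-type array at 12 weeks and above every one at 6 weeks. The difference between the genotype changes was -0.71 (SE 0.15, limma adjusted p = 0.0982) and did not pass the threshold. At 6 weeks wild-type replicate 1, at -0.87, lay below the other wild types at -0.42 and -0.48.

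Lbr stood out because its age difference ran opposite ways in the genotypes. In knockout brains it was -0.63, -0.54 and -0.56 at 12 weeks and -0.39, -0.16 and -0.46 at 6 weeks. The last of these was on slide 2 with the 12-week knockouts. It lay 0.11 above their mean, nearer to that mean than to the mean of the 6-week knockouts of slide 1. In wild-type brains, all on slide 1, Lbr was -0.25, -0.06 and -0.21 at 12 weeks and -0.44, -0.41 and -0.47 at 6 weeks. The difference between the genotype changes was -0.51 (SE 0.12, limma adjusted p = 0.114), which did not pass the threshold either.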

How the results depend on the processing

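Of the 18 members called between genotypes at 12 weeks, 0 were called with slide as a fixed block and 0 with slide as a random block, and the changes of Mvk (-0.02) and Abcg1 (-0.06) turned negative with the fixed block. With an array left out the count was 11 to 15, in fits that called 19.6% to 23.7% of all genes. Under the other settings it was 13 to 22. The lowest count came with slide column as a block, where 22.4% of all genes were called, and the highest with a trended, robust fit. Of the 5 members called with age in knockout, 0 were called with slide as a fixed or random block, on one slide only, with the replicate block, with no filter on dim probes and with a fit to the compared groups alone, 3 with slide column as a block, 9 with normexp background correction and 10 with the trended, robust fit, and 0 to 20 with an array left out. In that age comparison 1.13% of all genes were called with slide column as a block, and 0.0226% to 28% with an array left out. For the replicate block, normexp correction and the trended, robust fit the share of all genes was not counted. In the interaction 0 to 10 members were called with an array left out, the 10 without 6-week knockout replicate 3. The 20 with age in knockout came without the same array, where slide 2 holds the 12-week knockouts only. The counts at 6 weeks and with age in wild type were 0 in every setting run. The causes of these differences were not tested. One slide alone gives no value for the genotype comparison at 12 weeks or the interaction. Replicate numbers are shared between groups only as numbers: same-numbered arrays correlated at a median r of -0.0119 across genes, and 2 of 12 arrays correlated best with their own number. With the replicate block 17 members were called at 12 weeks. With 3 arrays per group, the smallest change called among the members at 12 weeks was 0.23 (Scap).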
